A study of Mus musculus with 4 samples.

Results

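This account covers 9 genes of blood coagulation, fibrinolysis and complement in mouse liver, taken by name: F2, F5, F9, F10, F11, Fga, Fgb, Plg and C3. Their N6-methyladenosine (m6A) was mapped by methylated RNA immunoprecipitation sequencing, in which fragmented RNA is pulled down with an antibody against m6A and sequenced beside the untreated input. Every peak that the authors had named for one of these genes was taken, which gave 13 of the 14057 peaks in floxed control livers and 22 of the 14693 peaks in knockout livers. Peaks were found on 8 of the 9 genes, out of 9650 genes with a peak in either list; Plg had none.

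The controls carried a floxed Alkbh5 gene (labelled Alkbh5flox/flox, FF below) and the other mice were labelled Alkbh5-HKO (HKO below). Neither the promoter that drove the deletion nor the part of Alkbh5 removed is given in the sources used here. Both groups ate normal chow, were 9 weeks old at sampling, and contributed liver RNA pooled from 3 mice (300 μg). Each genotype therefore had 1 pool, 1 immunoprecipitated (IP) library and 1 input library, so differences between them are not checked by replicates and are given without a p-value. Alkbh5 itself, the gene of an enzyme that removes m6A, had 3 FF peaks and 0 HKO peaks.

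Hepatocytes make most of the clotting factors, fibrinogen and complement proteins of plasma. In coagulation, factor XI activates factor IX, factor IX activates factor X, and factor X with its cofactor factor V cuts prothrombin (F2) to thrombin. Thrombin turns fibrinogen, built from chains encoded by Fga, Fgb and Fgg, into fibrin, and plasmin, made from plasminogen (Plg), dissolves the clot. C3 is the protein on which the routes of complement activation converge. m6A is an abundant internal mark of messenger RNA, known to be frequent near stop codons and in long exons and to be placed mainly at an adenosine followed by C.

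The fold of a peak, as computed by the authors, is the enrichment of IP over input, and its log10 p is the authors' measure of enrichment, more negative for stronger evidence. Both are values of a single peak in a single pool. Folds of FF and HKO come from separate pulldowns and are set side by side with no direction of change, and the read depth of the libraries is unknown. The RNA level of each gene is also unknown, so a missing peak does not show that the RNA lacked m6A; fewer cells of a type and less RNA per cell cannot be told apart in such bulk RNA. Peaks were counted as overlapping when their exon blocks shared at least 1 bp on the same strand. Among marker genes, 5 of 10 hepatocyte markers had an FF peak and 7 of 10 an HKO peak, with none on Tf and Asgr1, while 0 of 8 platelet and megakaryocyte markers had a peak in either list. For macrophage, endothelial and stellate cell markers, peaks were found on 4, 4 and 4 of 8 in FF and on 4, 4 and 6 of 8 in HKO; their part in the results was not tested.

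Peaks reached the first base of the RNA, as given by the RefSeq promoter table, on 5 members. The bases around that point are given here for these 5 and for the 3 without such a peak. Each window runs from 10 bases before the first base to 20 bases from it on, on the strand of the gene, and the capital marks the first base (RefSeq promoter table, GRCm38.p6, in which 8 of the 9 genes matched). F9, F11 and Fga had a peak there in both lists, F2 in FF alone and F5 in HKO alone.
F9: aacaaaggtcAtgaagcacctgaacaccgt
F11: acagtgttccAtaccggctcacgtagaaaa
Fga: ctgtgagtgcAgtcagtcctccttcgcttc
F2: tcttcacatcGgttcaatattaacccagag
F5: ttagacagccAccacaggggacagggacac
F10: aacagttcagGgttcctgttccccaatagc
C3: gggagggaccAgagaggagagccatataaa
Fgb: ccattcctgaAgtcatgccggggagaggac

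These windows lie at chrX:59999454-59999483 (F9, plus strand), chr8:45262012-45262041 (F11, minus), chr3:83026143-83026172 (Fga, plus), chr2:91636438-91636467 (F2, minus), chr1:164151825-164151854 (F5, plus), chr8:13037298-13037327 (F10, plus), chr17:57228117-57228146 (C3, minus) and chr3:83049844-83049873 (Fgb, minus). The first base was A in 4 of the 5 windows reached by a peak and in 2 of the other 3, against 34.4% of 32851 annotated starts. Within the first 50 bases of the RNA, the letters GGAC, a common form of the m6A motif, were found on the RNA strand in 3 of the 5 (F2, F5 with 2 copies, and F11) and in 1 of the other 3 (Fgb), against 18.9% of all starts; on the opposite strand they were found in 2 of the 5 (F5 and Fga) and 0 of the 3, against 17.4%. The shorter motif AAC or GAC, of which GAC lies within GGAC, was found on the RNA strand in 4 of the 5 and 2 of the 3, against 68.6% of all starts, and on the opposite strand in 4 and 2, against 70.7%. The RefSeq gene span of F9 begins 135 bp before the first base marked in its window, which opens with the letters of a start codon. The F9 peaks began inside that span and did not reach its first base, so F9 counts among the 5 by the promoter table alone. The span of F11 begins 24 bp before its marked base, so the true starts of both RNAs are less certain. Antibodies against m6A are also known to bind the methylated adenosine that can stand next to the cap; its part in these peaks was not tested.

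Most FF peaks on these genes had a counterpart in HKO, while HKO held as many further peaks again. Of the 13 FF peaks, 11 overlapped an HKO peak and 2, both on F2, did not; across the whole FF list 25.2% of peaks overlapped none. Of the 22 HKO peaks, 11 overlapped an FF peak and 11 did not, where 28.5% of all HKO peaks had no overlap. Of these 11, 5 lay on F5, 2 on F9 and 1 each on F2, F11, Fga and C3. Without F5, 6 of 16 HKO peaks had no overlap. Each of the 8 genes was found in FF and in HKO alike, which holds for 75.6% of all genes with a peak. The members' peaks covered 5328 bp of exon in FF and 7914 bp in HKO.

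**Figure D1:**
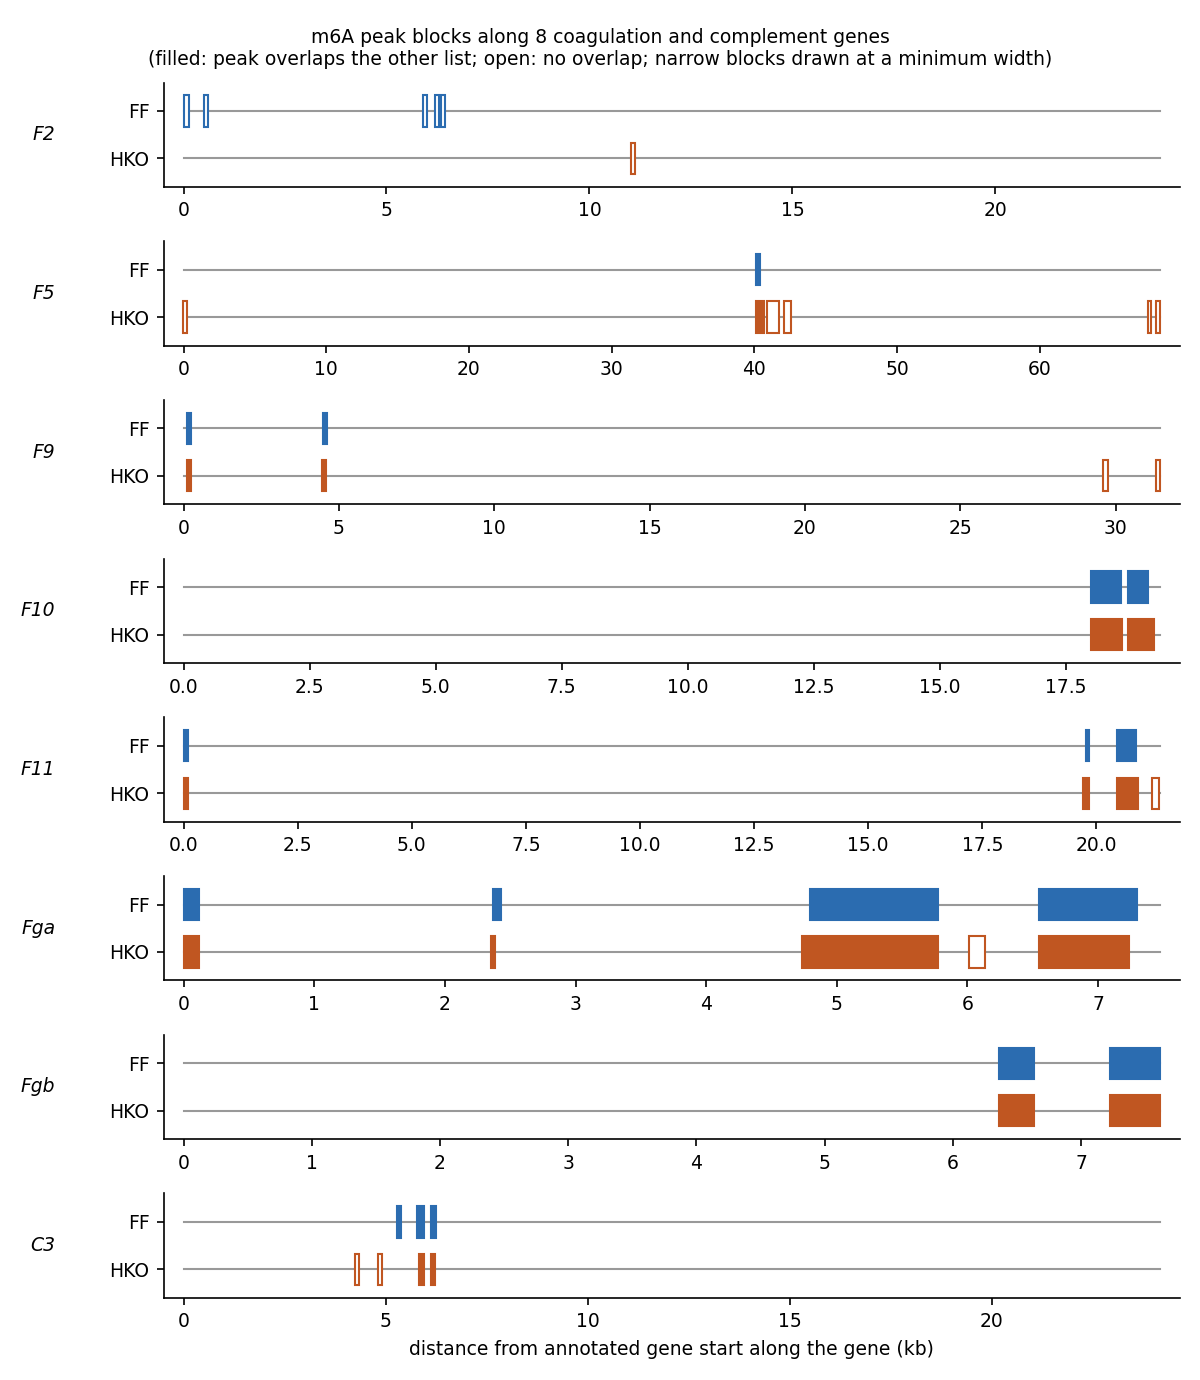
Exon blocks of every peak along the 8 genes with a peak; the x axis is the distance from the annotated gene start in kb, blue blocks are FF and orange blocks HKO, and open blocks belong to peaks that overlap none of the other list. F2 shows open blocks only, and F5 has 1 FF peak against 6 HKO peaks.

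F5 encodes factor V, the cofactor with which factor X cuts prothrombin. It carried 1 FF peak and 6 HKO peaks, 300 bp of exon against 2403 bp. The FF peak, at chr1:164191958-164192257, had a fold of 7.2 and a log10 p of -39.3. It lay wholly inside a 570 bp HKO peak at chr1:164191928-164192497 with a fold of 20.5 and a log10 p of -99.9. In their own lists these folds stood at percentiles 42.5 and 80.1.

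A further pair of HKO peaks followed downstream in the same part of F5, where FF had none. The first, 840 bp at chr1:164192737-164193576, began 479 bp beyond the FF peak and had the highest fold of the gene, 26.4 (log10 p -87.9). The other, 450 bp at chr1:164193936-164194385, had a fold of 6.83 (log10 p -77.3). All 3 HKO peaks there were single blocks with no intron inside them. The remaining HKO peaks lay at the ends of the gene. One covered the first 181 bp of the annotated RNA, with a fold of 4.99 and the weakest log10 p of all members' peaks, -6.03, and the others were centred 749 bp and 150 bp before the gene end, with folds of 4.15 (log10 p -63) and 3.03 (log10 p -32.8). In the HKO list 8 genes, 0.0934% of those with an HKO peak, carried 5 or more peaks without overlap, and F5 was one of them. Only genes with at least 5 HKO peaks could be among them, and the share was not taken over such genes alone.

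**Figure D2:**
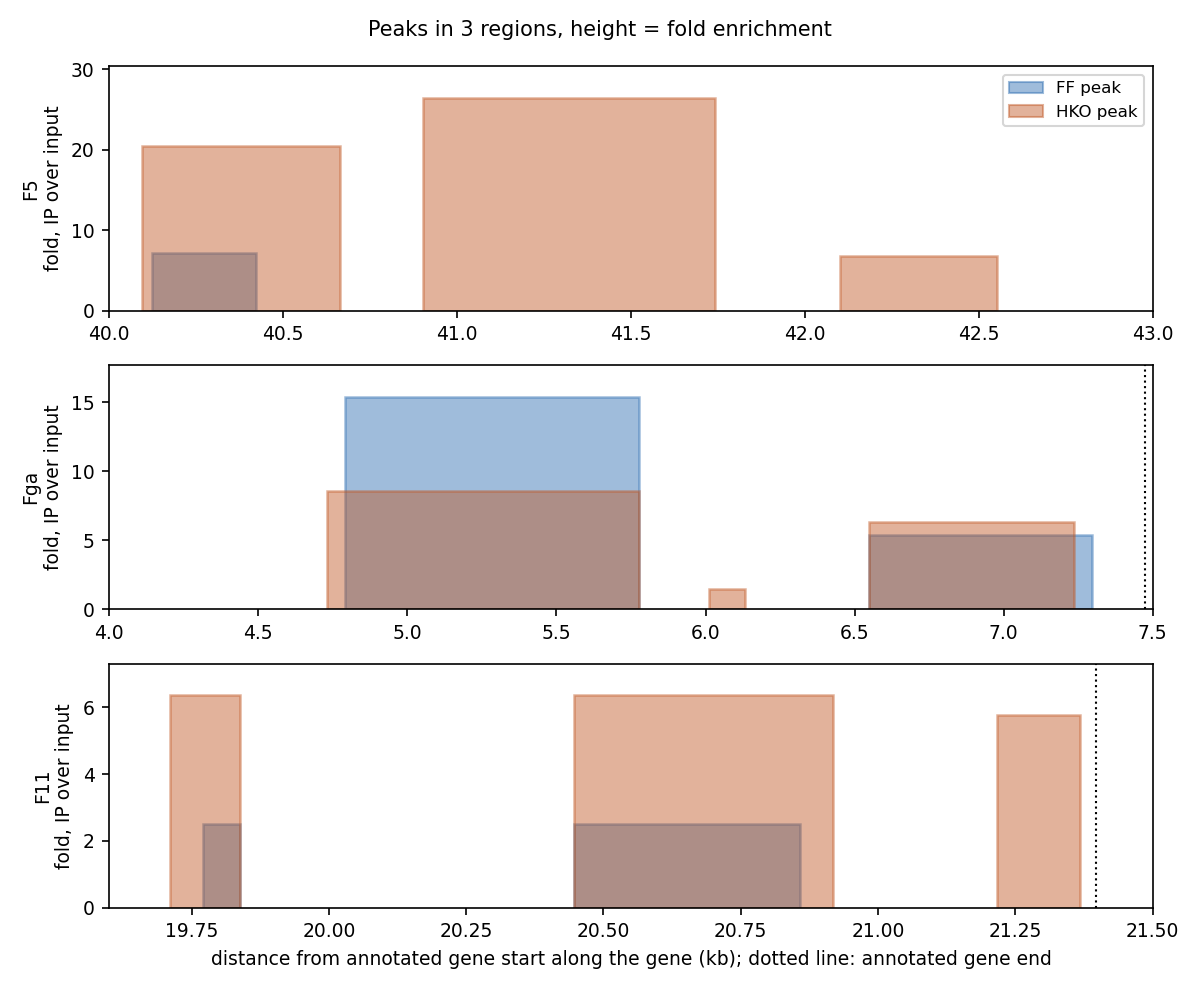
Peaks in the middle of F5 and towards the ends of Fga and F11, with the distance from the annotated gene start in kb on the x axis and the authors' fold of IP over input on the y axis (linear, from 0; blue FF, orange HKO). On F5 the HKO peaks reach 20.5, 26.4 and 6.83 and the FF peak 7.2, on Fga the FF peak is the taller, 15.4 against 8.59, and on F11 the HKO peak is, 6.35 against 2.51.

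By p, the fibrinogen genes carried the members' strongest peaks. By fold, the highest values were those of F11 (39.9) and F5 (26.4), both in HKO. Fga, which encodes the alpha chain, had a single-block peak of 985 bp in FF at chr3:83030944-83031928, with a fold of 15.4 and a log10 p of -28600. The HKO peak there, 1045 bp at chr3:83030884-83031928, ended at the same base, with a fold of 8.59 and a log10 p of -14700. By p these ranked 6 of 14057 FF peaks and 16 of 14693 HKO peaks. Its centre lay about 2.2 kb before the gene end (2191 bp in FF and 2221 bp in HKO). Here the FF fold was the higher of the pair, at percentile 76.2 of its list against 42.6 for HKO.

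Fga had peaks along its whole length in both lists. At the start, a peak of 116 bp from the first base on was joined across a 2253 bp intron to a further block, with folds of 3.45 in FF and 7.78 in HKO and log10 p of -266 and -297. Near the end, peaks beginning at the same base, chr3:83032703-83033448 in FF and chr3:83032703-83033388 in HKO, had folds of 5.39 and 6.33 and log10 p of -150 and -115. HKO had a further small peak of 120 bp at chr3:83032166-83032285, 237 bp beyond the main one, with a fold of 1.49 (log10 p -12.4), the lowest fold among the members' HKO peaks.

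Fgb, which encodes the beta chain, had 1 peak in each list with identical limits, chr3:83042246-83043501. Its blocks of 389 bp and 270 bp were parted by an intron of 597 bp, and the peak ran to the last annotated base of the gene. The fold was 1.52 in FF and 11.5 in HKO, and the log10 p -216 and -1470. In FF this fold stood at percentile 0.683 of the list although the peak ranked 415 of 14057 by p, and in HKO at percentile 54.4. Identical limits were found in 2 of the 11 overlapping pairs of the members, Fgb and the start of F11, against 6.63% of all FF peaks with an HKO partner. The main Fga pair thus had the higher fold in FF, while the other Fga pairs and the Fgb pair had it in HKO.

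F2, which encodes prothrombin, had peaks in both lists at different places. In FF, a peak of 69 bp and 140 bp blocks at chr2:91635873-91636457 ended at the first base of the gene, with a fold of 2.3 and a log10 p of -23.5. A second FF peak, of 3 blocks at chr2:91630033-91630529, had a fold of 1.3 (log10 p -15.7), the lowest of all the members' peaks and percentile 0.121 of the FF list. The only HKO peak, 90 bp at chr2:91625332-91625421, was 4611 bp from the nearest FF peak and had a fold of 2.71 (log10 p -12.7). Across the lists, 298 of the 7291 genes with peaks in both (4.09%) had no overlapping peak.

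F9, F10 and F11 had every FF peak matched in HKO, as had all other members with an FF peak except F2. F10, which encodes factor X, had its peaks only in the last part of the gene, a pair in each list. The upstream peaks began at the same base, chr8:13055300-13055898 in FF and chr8:13055300-13055928 in HKO, with folds of 1.96 and 4.93 and log10 p of -108 and -443. The downstream peaks, chr8:13056048-13056437 and chr8:13056048-13056556, had folds of 5.75 and 3.84 and log10 p of -70.8 and -40.9. The order of the lists thus differed between neighbouring peaks of 1 gene: the HKO fold was the higher upstream and the FF fold the higher downstream.

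F11, which encodes factor XI, had peaks at both ends. At the start, 91 bp at chr8:45261965-45262055 formed a peak in each list, with folds of 8.3 (FF) and 39.9 (HKO), the latter the highest fold of all the members. Its log10 p was -8.32 in FF, the weakest of the members' FF peaks, and -11.1 in HKO, weaker than all but the start peak of F5. Of the 909 HKO peaks with a fold of at least 39.9, 0 had a larger p than this one and 899 a smaller one. Near the end, a peak crossing a 607 bp intron had 480 bp of exon, a fold of 2.51 and a log10 p of -36.2 in FF (chr8:45241199-45242285), and 600 bp, 6.35 and -134 in HKO (chr8:45241139-45242345). HKO had a further peak of 151 bp at chr8:45240689-45240839, centred 105 bp before the gene end, with a fold of 5.77 (log10 p -13.6).

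F9, which encodes factor IX, the protein lacking in haemophilia B, had its only FF peak near the start of the gene. This peak joined 103 bp to the next block across a 4285 bp intron, chrX:59999449-60003913, with a fold of 2.96 and a log10 p of -9.8. In HKO the peak began at the same base, chrX:59999449-60003883, with a fold of 14.7 and a log10 p of -20.8. HKO also had peaks of 180 bp and 150 bp at chrX:60028907-60029086 and chrX:60030611-60030760, with folds of 2.9 (log10 p -12.1) and 5.41 (log10 p -17). The latter ended on the last annotated base of the gene.

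C3, the only complement gene of the group, had peaks of low fold, centred between 4842 bp and 5928 bp from the start of a gene span of 24170 bp. The FF peak, of 3 blocks at chr17:57221896-57222839, had a fold of 1.83 and a log10 p of -85. The overlapping HKO peak, at chr17:57221926-57222313, had a fold of 1.82 and a log10 p of -72.7, and these were the closest folds of any overlapping pair among the members. A further HKO peak at chr17:57223234-57223853, 394 bp from the nearest edge of the FF peak, had a fold of 1.88 (log10 p -31.8). All 3 folds lay between percentiles 1.5 and 2.36 of their lists. Plg, the plasminogen gene at chr17:12378609-12419384, had no peak in either list.

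**Figure D3:**
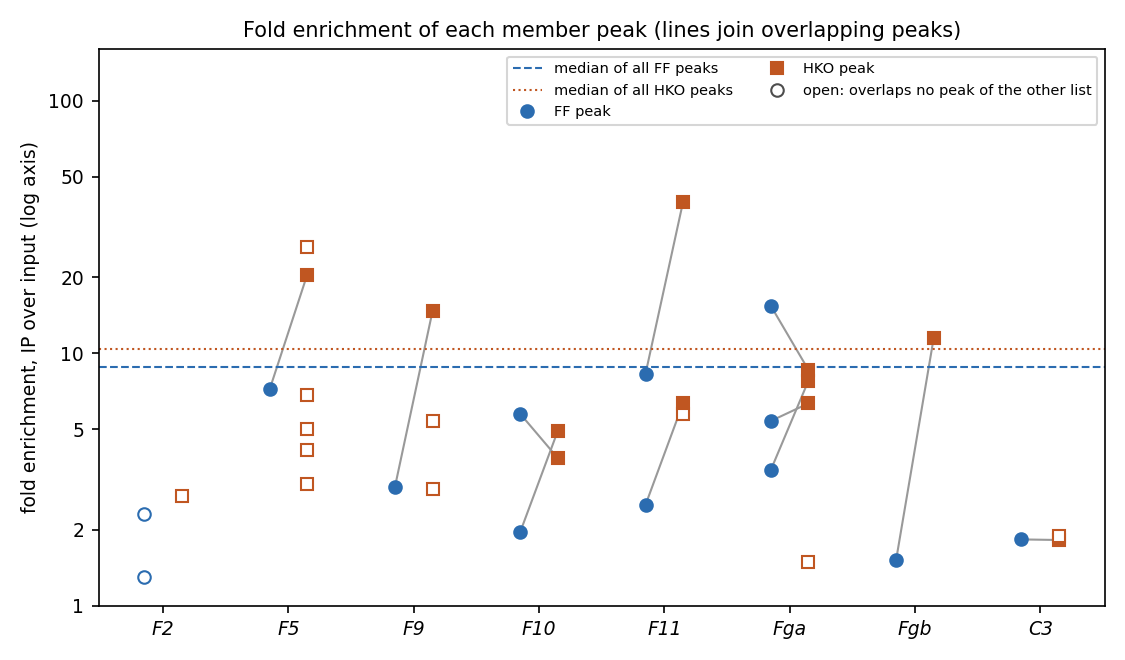
The authors' fold of IP over input for every peak of the 8 genes (log axis), with FF as blue circles, HKO as orange squares, grey lines joining overlapping peaks, open symbols for peaks without overlap, and dashed and dotted lines at the medians of all FF (8.8) and all HKO (10.4) peaks. Only 1 FF and 5 HKO points lie above the median of their list, and the lines slope both ways, down for the main Fga pair and up for Fgb.

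Compared with other peaks, those of the members had low folds and small p. The median fold of the 13 FF peaks was 2.96 (range 1.3 to 15.4) against 8.8 for the FF list, and that of the 22 HKO peaks 5.59 (1.49 to 39.9) against 10.4 for the HKO list. The median log10 p was -70.8 in FF and -52.0 in HKO, against -8.82 and -9.71 for the lists. Every one of the members' peaks passed a q of 1e-05, as did 62.3% of all FF and 65.5% of all HKO peaks. Among the 11 overlapping pairs the HKO fold was the higher in 8, where it was higher for 60.7% of all FF peaks with a partner; the exceptions were the main Fga pair, the downstream F10 pair and C3.

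**Figure D4:**
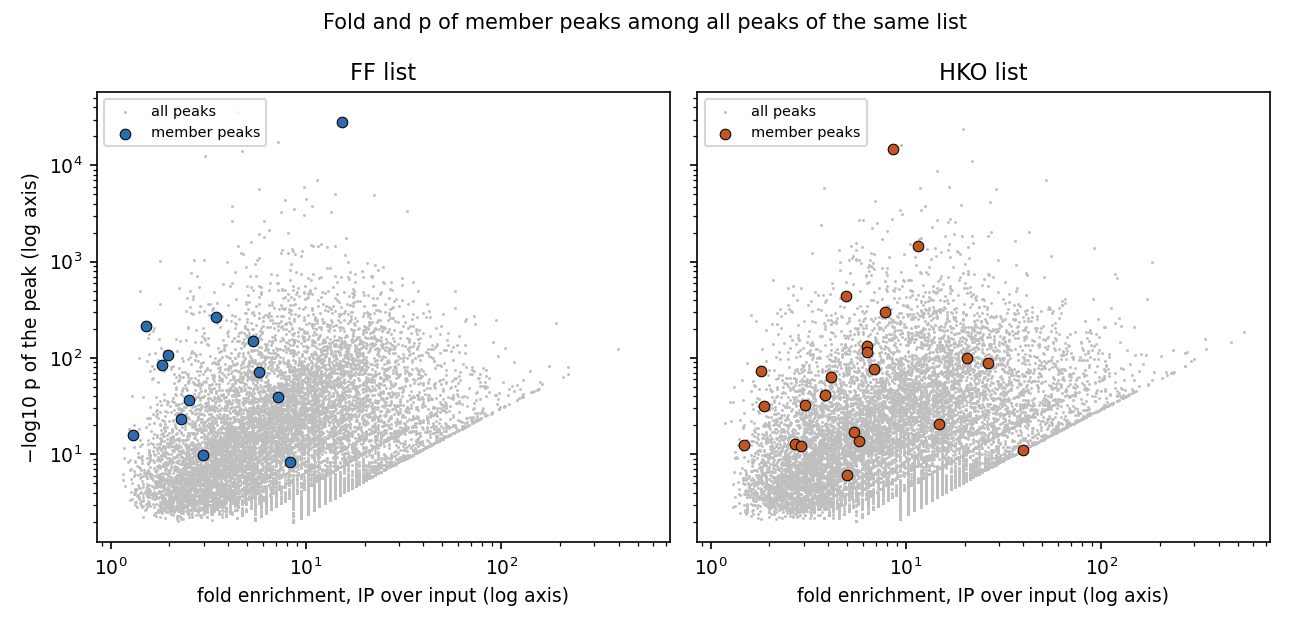
Each point is a peak, with the authors' fold of IP over input on the x axis and −log10 p on the y axis (log axes; grey, all peaks of the list with a finite p; coloured, members' peaks). Most members sit to the left and high, the main Fga peak stands near the top in both panels at 15.4-fold and 8.59-fold, and the F11 start peak lies on the lower edge of the HKO points at 39.9-fold.

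The members' peaks lay at gene starts, gene ends and places between. Within 500 bp of the annotated start were centred 4 of 13 FF peaks (F2, F9, F11 and Fga) and 4 of 22 HKO peaks (F5, F9, F11 and Fga), against 15% of all FF and 7.39% of all HKO peaks. Within 1000 bp of the annotated end were 4 FF peaks (F10, F11, Fga and Fgb) and 8 HKO peaks, against 26.6% and 31% of the lists. The 8 were single peaks on F9, F10, Fga and Fgb and a pair each on F5 and F11. Of the 11 HKO peaks without overlap, 4 lay near an end (a pair on F5, and 1 each on F9 and F11) and 1 near a start (F5). With a window of 500 bp at the end the counts were 2 and 5. Peaks of more than 1 exon block made up 7 of the 13 FF peaks and 6 of the 22 HKO peaks, against 17.4% and 13.9% of the lists.

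Around the members, 41 coagulation and fibrinolysis genes were listed, 8 members among them. Of these, 28 had peaks in both lists; genes in a single list are not counted here, because 1 such gene was left out. Over all genes with a peak, 75.6% were in both lists, 11.2% in FF alone and 13.2% in HKO alone. The 41 include genes without a peak, and nothing is read from these lists against those shares. Those with the smallest p were Fga, Hrg, a histidine-rich plasma protein that binds plasminogen and heparin, and Proc, the anticoagulant protein C. Hrg had folds of 2.45 in FF (log10 p -424) and 16.8 in HKO (log10 p -2770), and Proc 4.78 (log10 p -1200) and 5.54 (log10 p -1580). Pros1, the cofactor of protein C, and Vkorc1, the enzyme that recycles vitamin K for factors such as F2, F9 and F10, had peaks in HKO alone. Their strongest peaks had folds of 1.77 (log10 p -5.08) and 2.1 (log10 p -34.9) and were centred 327 bp and 131 bp before the gene end. Besides Plg, the genes F12, F13a1, Vwf, Procr, Serpina5, Plat, Plau, Cpb2, A2m and Ggcx of this list had no peak. Serpinf2, the inhibitor of plasmin, had peaks in both lists, with folds of 2.86 in FF (log10 p -346) and 5.11 in HKO (log10 p -1030) at its strongest. It had 2 FF peaks, of which 1 overlapped no HKO peak, and 1 HKO peak. Over the 41 genes, members included, 6 of 48 FF peaks and 17 of 59 HKO peaks overlapped none, against 25.2% and 28.5% of the lists.

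Of 43 complement genes, C3 among them, 24 had peaks in both lists. The 43 include genes without a peak, so nothing is read from this count against the 75.6% of all genes with one. Those in a single list are again not counted because 1 was left out. The smallest p belonged to C8a, a subunit of the membrane attack complex (fold 6.09 in FF and 28.8 in HKO), Mbl1, a mannose-binding lectin that starts complement activation (8.12 and 13.6), and Serping1, the inhibitor of the first component (2.7 and 22). Among the components of the membrane attack complex, grouped after their values were seen, C6 (fold 6.22), C8g (8.77) and C9 (1.72) had peaks in HKO alone, Hc, C8a and C8b had peaks in both lists, and C7 had none. Peaks in HKO alone were also found on Cfi, the protease that degrades active C3 (9.33), and on Cr1l, a regulator of C3 on cell surfaces (6.02). Of these genes in HKO alone, C9 had the smallest log10 p, -38.3, and the others lay between -8.3 and -10.5. Over the 43 genes, 9 of 42 FF peaks, 2 of them on Fcna, and 19 of 51 HKO peaks overlapped none, against 25.2% and 28.5% of the lists. When only peaks with a q up to 1e-05 were kept, 21 complement genes and 26 coagulation genes had peaks in FF and in HKO.

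**Figure D5:**
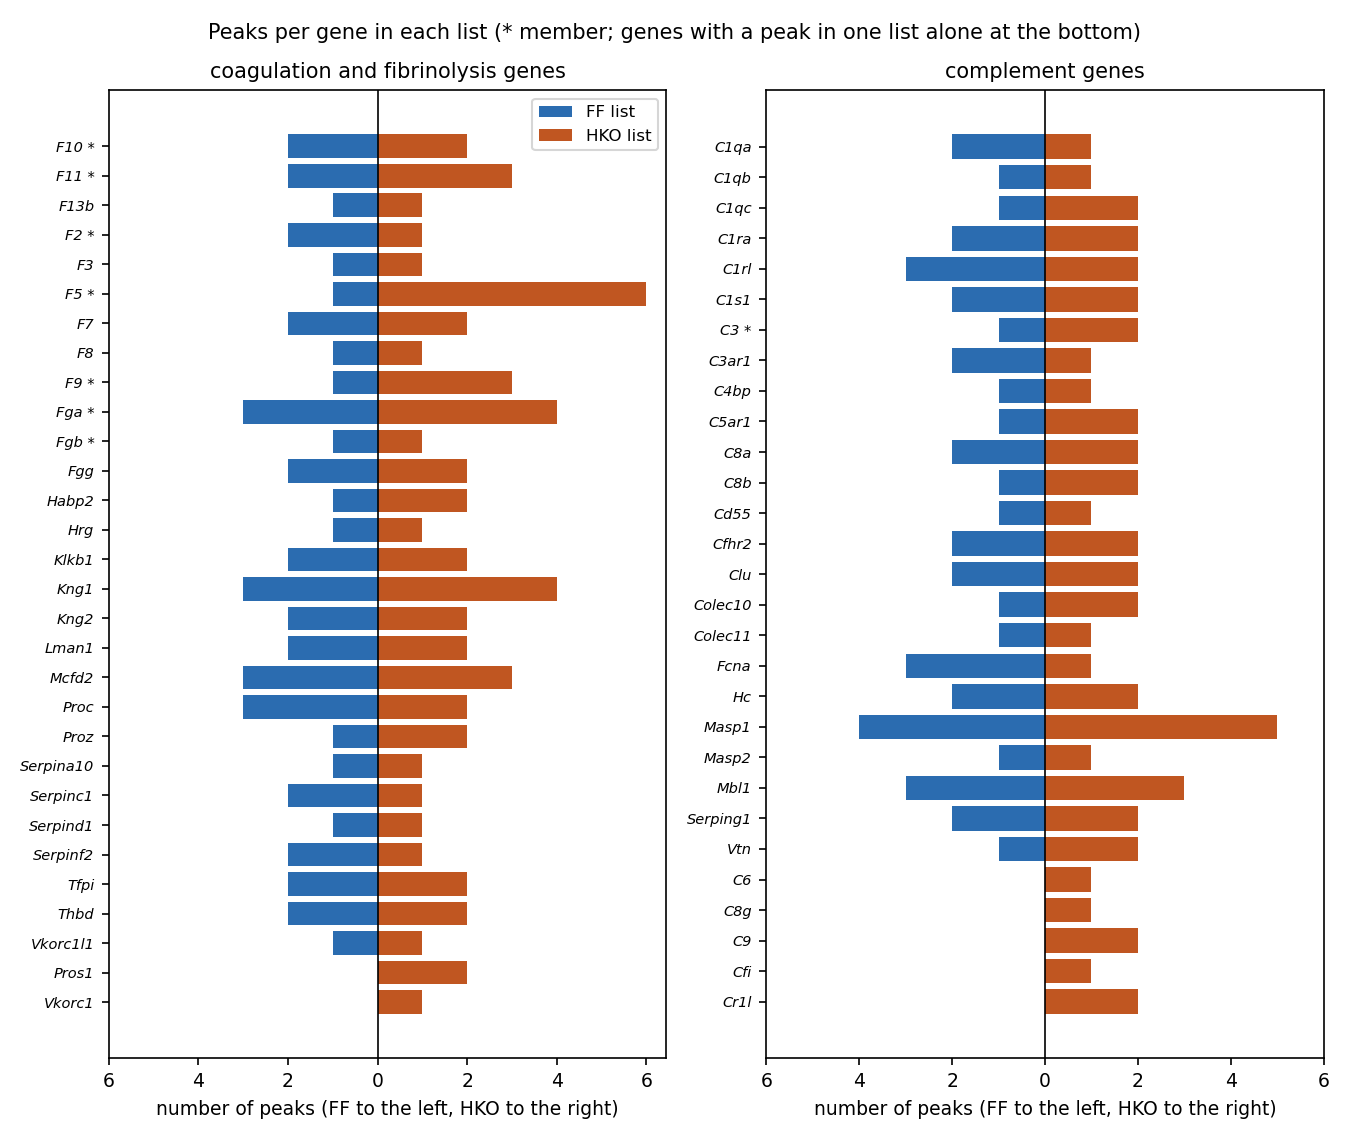
Number of peaks on each coagulation and fibrinolysis gene (left panel) and complement gene (right panel) that had a peak, FF to the left and HKO to the right of 0, with members starred and genes with peaks in 1 list alone at the bottom. F5 has the widest difference, 1 against 6, and the genes at the bottom have HKO bars only; 1 gene of a single list was left out of each panel.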

How the data were processed

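Per the labels, RNA fragments of about 100 nt were immunoprecipitated and sequenced as paired reads of 150 bp. BWA 0.7.12, fastp 0.19.11, HOMER 4.9.1 and the build GRCm38.p6 are listed in the submitters' processing notes. The authors called peaks per genotype, IP against input, with exomePeak 2.16.0 at a q of 0.05, per the series design text. The deposited lists give each peak a p-value, its log10 p and log10 q (entered as a score, since it has no lower bound) and a fold ratio of IP over input by the authors; a p below what the file can hold is listed at minus infinity (4 FF and 10 HKO peaks, none a member's), and likewise a q (240 and 305 peaks, among them the main Fga peak in both lists and the Fgb and upstream F10 peaks in HKO), so log10 p is given. The sources disagree on the antibody and the library kit. Read depth is unknown.

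Members were found by gene symbol, and overlaps, distances to RefSeq gene spans (GRCm38.p6) and motif counts were computed with Python 3.11.15, pandas 2.3.3 and numpy 2.4.6, and figures with matplotlib 3.10.9. Distances use the centre of a peak's exonic bases. The overlap code was tested on shifted copies of the FF peaks and against a direct pairwise count of the lists on a single chromosome. The members, the lists of other coagulation and complement genes and the alternatives were chosen with earlier results of these data known. All members are named, with, from the other genes, each one in a single list and the 3 of smallest p per list; 1 gene with a peak in a single list was left out of each of these lists and of their counts, and is not reported here.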

Additional observations from a re-analysis of the deposited data

How the results depend on the processing

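Of 27 alternative values, 22 stayed within 1.5 times the reported count. The count of FF peaks without overlap was 2 under every alternative except a fold of 2 or more, which left 1, and without F2, which left 0. The count of HKO peaks without overlap was 11, or 9 at a fold of 2 or more, and 6 without F5. Some alternatives could not move these counts, and their values are among the 22. A rule asking for more overlap changed nothing, because in every overlapping pair the exon blocks of the shorter peak lay wholly inside the other. The stricter limit on q removed no member's peak, so it tested neither these counts nor that of members in both lists. Near the gene end, a window of 500 bp gave 2 FF and 5 HKO peaks. Leaving out F2 or F5 and taking starts from the promoter table were chosen after seeing the data. Motifs inside peaks and positions along transcripts were planned and not run, since no genome sequence or transcript models were used here. No paired analysis was possible because FF and HKO were 1 pool each, without numbered replicates. Depth limits the lists to an unknown extent.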

Other observations

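Several members lie beside genes of the same pathway, and the peaks of those neighbours are given here as values. Fgg, the gene of the fibrinogen gamma chain, lies 11.1 kb from Fga. It had overlapping peaks at its start, with folds of 6.09 (FF) and 3.79 (HKO), and a pair of overlapping peaks inside the gene with folds of 1.24 and 2.21 (log10 p -18.1 and -176). Fgg had no peak near its end, where Fga and Fgb had peaks in both lists.

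F7 and Proz flank F10 on chromosome 8. F7 encodes factor VII, which starts clotting with tissue factor, and had a peak near its end with folds of 6.6 (FF) and 9.69 (HKO) (log10 p -273 and -359). Overlapping peaks in the first part of F7 had folds of 7.25 (FF) and 5.52 (HKO), with log10 p of -15.8 and -4.46. Proz encodes protein Z, a cofactor in the inhibition of factor X. Its main peak had folds of 8.13 (FF) and 12.5 (HKO), and a further HKO peak centred 402 bp before the gene end (2.17) overlapped no FF peak. Klkb1, the gene of plasma prekallikrein, a relative of factor XI, lies 4.63 kb from F11. Its peaks overlapped between the lists, with folds of 1.9 and 4.23 for one pair and 2.33 and 3.19 for the other. All 4 neighbours had peaks in both lists, as had 75.6% of all genes with a peak in either list.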
